A study of Mus musculus with 8 samples.

Results

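Kruppel-like factors (KLFs) are transcription factors with zinc fingers at the C-terminal end that bind GC-rich and CACCC-containing DNA. The 8 members described here, Klf2, Klf3, Klf4, Klf6, Klf7, Klf9, Klf10 and Klf13, were chosen by gene symbol, and all 8 were found among the 23997 genes of the deposited table. The cells sequenced were marginal zone B cells (MZBs) from the spleens of C57BL/6 mice, which lie beside the marginal sinus. The labels give 4 libraries of ACKR3+ cells, titled GFPposi, and 4 of ACKR3- cells, titled GFP-, with ACKR3 status entered as the genotype. ACKR3 is an atypical receptor that scavenges the chemokine CXCL12. The labels state neither the age of the mice nor the allele that carries GFP.

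The table holds 1 estimated fragment count and 1 variance per gene for each of 2 pooled conditions, named q2 and q1. No label ties either name to ACKR3+ or ACKR3- cells, so each value is given by condition, without a direction for ACKR3. The counts summed to 16653774 fragments in q2 and 16877559 in q1. Ackr3 itself had 149 ± 23.7 fragments in q2 and 1030 ± 100.1 in q1. Values after ± are the SDs that the deposited variances imply, and they are no replicate spread of their own. With 1 value per condition there was no test and no p-value. Log2 ratios are q2 over q1 with a pseudocount of 1, so a negative ratio means fewer fragments in q2. They were set beside those of the 9582 genes with at least 100 fragments in either condition, whose median log2 ratio was 0.00. All 7 B cell markers listed, among them Cd79a and Ms4a1, were above 100 fragments in these data, and 6 of the 7 had fewer fragments in q2, with a median log2 ratio of -0.11. Of 8 stromal or endothelial markers, 3 were at 0 in a condition, as were 3 of 5 platelet markers and 1 of 8 erythroid markers. The others were detected, all below 100 fragments. Stromal or endothelial markers summed to 66.7 fragments in q2 and 88.2 in q1. Platelet markers summed to 28.6 and 23.0, and erythroid markers to 89.5 and 98.9.

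In resting lymphocytes, several KLFs are known to hold cells out of division and to set where they travel. Klf2 sustains the egress receptor S1pr1 in mouse lymphocytes, and mouse B cells that lack Klf2 take on features of MZBs. Klf4 is a FoxO target that restrains B cell proliferation in the mouse, Klf9 has been tied to the resting state of human naive B cells, and Klf3 is a repressor required for normal MZB numbers in mice.

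The promoters of Klf4, Klf6, Klf2 and Klf13 are shown because these are the members with at least 500 fragments that had fewer in q2. Each run is the RefSeq window of 250 bases before to 50 after the gene's start (GRCm38.p6), read 5′ to 3′ on the gene's strand. Capitals mark a match on either strand to the MEF2 element (CTA, any 4 bases, then TAG), the forkhead core TGTTTA or the E-box CACGTG.
Klf4: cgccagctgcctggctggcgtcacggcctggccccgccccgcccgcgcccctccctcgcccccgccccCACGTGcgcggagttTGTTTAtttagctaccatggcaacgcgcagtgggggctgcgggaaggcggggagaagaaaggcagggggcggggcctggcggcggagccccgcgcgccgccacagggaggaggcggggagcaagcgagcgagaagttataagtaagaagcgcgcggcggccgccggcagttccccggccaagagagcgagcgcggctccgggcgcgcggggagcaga
Klf6: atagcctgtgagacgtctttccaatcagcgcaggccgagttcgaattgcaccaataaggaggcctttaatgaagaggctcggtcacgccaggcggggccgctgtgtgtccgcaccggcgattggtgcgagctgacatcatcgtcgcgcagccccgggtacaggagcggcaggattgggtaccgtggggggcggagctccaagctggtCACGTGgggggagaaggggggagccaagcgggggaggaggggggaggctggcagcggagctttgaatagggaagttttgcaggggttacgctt
Klf2: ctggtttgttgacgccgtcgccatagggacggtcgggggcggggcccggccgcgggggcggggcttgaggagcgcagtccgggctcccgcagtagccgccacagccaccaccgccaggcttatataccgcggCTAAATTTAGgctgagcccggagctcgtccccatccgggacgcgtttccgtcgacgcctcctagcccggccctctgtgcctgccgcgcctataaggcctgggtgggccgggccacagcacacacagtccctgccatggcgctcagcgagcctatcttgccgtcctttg
Klf13: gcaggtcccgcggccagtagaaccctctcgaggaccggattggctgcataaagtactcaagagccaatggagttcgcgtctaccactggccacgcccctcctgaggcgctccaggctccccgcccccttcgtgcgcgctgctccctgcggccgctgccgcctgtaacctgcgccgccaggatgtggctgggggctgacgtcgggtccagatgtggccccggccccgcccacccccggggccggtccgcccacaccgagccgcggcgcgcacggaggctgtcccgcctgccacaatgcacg
The windows lie at chr4:55532426-55532725 on the minus strand for Klf4, at chr13:5861239-5861538 on the plus strand for Klf6, at chr8:72318812-72319111 on the plus strand for Klf2 and at chr7:63938866-63939165 on the minus strand for Klf13. The Klf2 window holds the MEF2 match CTAAATTTAG, whose first base lies 118 bases before the start. MEF2 factors are known to drive Klf2 transcription downstream of the kinase ERK5. Klf4 holds a forkhead core 167 bases and an E-box 182 bases before the start, and Klf6 holds an E-box 43 bases before it. The Klf13 window has no match to any of these 3 motifs. Of the 32851 RefSeq windows of this length, 3.69% hold the MEF2 element, 13.4% the forkhead core and 7.15% the E-box. Windows were found for 7 of the 8 members, and the other with a forkhead core is that of Klf9, at 99 bases before the start. The GC box GGGCGG, a site that KLF and Sp proteins bind, has 4 matches in the Klf4 window, 3 in that of Klf13, 2 in that of Klf2 and 1 in that of Klf6. It has 6 matches in the Klf3 window, and 35.7% of all windows have at least 1. The letters CACCC or their complement occur 5 times in the Klf3 window, once in each of the Klf2 and Klf13 windows and not in those of Klf4 and Klf6, against 57.5% of all windows with a match. In the windows printed, 2 of the GC boxes of Klf4 share 1 base, as do the CACCC match and a GC box of Klf13, and no other motifs overlap. A match is a description of letters and not evidence of binding.

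Klf4 had the largest ratio between the conditions among the 8 factors, and Klf6 the largest difference in fragments. The gene (chromosome 4, 55527143 to 55532466, GRCm38) had 1011 ± 99.8 fragments in q2 and 1597 ± 160.0 in q1. Its log2 ratio was -0.66 ± 0.20, or 3.25 deposited SD, and the ranges of 1 SD around the 2 counts did not meet. The ratio of q2 over q1 was 0.633, with an exact (Clopper-Pearson) 95% interval of 0.585 to 0.685 that covers counting error only. Klf4 was the only member at least 1.5-fold apart, and no member reached 2-fold. Over all genes, 4.97% were at least 1.5-fold apart, 3.39% with more fragments in q2 and 1.58% with more in q1, and 2.28% were at least 2-fold apart. Of all genes, 1.17% had a ratio as low as that of Klf4 or lower.

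Klf6, a factor induced quickly by many stimuli, had more fragments than any other member in q1. Its count (chromosome 13, 5861482 to 5870394) was 4189 ± 386 in q2 and 5761 ± 543 in q1. The log2 ratio was -0.46 ± 0.19, or 2.42 deposited SD, and the ranges of 1 SD did not meet here either. Klf6 and Klf4 were thus the 2 members more than 2 deposited SD apart, a size that 6.26% of all genes reached, 4.15% with more fragments in q2 and 2.11% with more in q1. The counting interval for the Klf6 ratio was 0.699 to 0.757.

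Klf2 pointed the same way with a smaller difference. It had 2469 ± 229 fragments in q2 and 2957 ± 274 in q1 (chromosome 8, 72319033 to 72321656), and its log2 ratio of -0.26 ± 0.19 was 1.38 deposited SD. Here the ranges of 1 SD overlapped. A regression on GC content, length and expression gave a corrected ratio of -0.15, and 7.03% of all genes had a ratio as low as the uncorrected one or lower. Counting error alone gave 0.791 to 0.881 for the ratio, so the deposited variance and not the depth sets the width of this comparison.

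Klf13, which drives late expression of the chemokine Ccl5 in T cells, was close in both conditions. It had 4418 ± 379.7 fragments in q2 and 4726 ± 407 in q1 (chromosome 7, 63886351 to 63938915), a log2 ratio of -0.10 ± 0.18. With the same correction the ratio was -0.0097.

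Klf3 was the abundant member with more fragments in q2. It had 1209 ± 113 fragments in q2 and 1054 ± 100.3 in q1 (chromosome 5, 64803388 to 64832901), with a log2 ratio of 0.20 ± 0.19, and the ranges of 1 SD overlapped. Its ratio lay 0.86 ± 0.28 above that of Klf4 and 0.66 ± 0.27 above that of Klf6 on the log2 scale. Among the 28 pairs of members, 4 differed in log2 ratio by more than 2 SD and 1 by more than 3 SD, that of Klf3 and Klf4. The other 2 pairs set Klf4 against Klf10 and Klf13. A transcript on the opposite strand, Gm20033, shares 404 exonic bases with Klf3, and the labels do not say whether strand was kept, so reads from the pair cannot be told apart.

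The remaining 3 members were scarce, and their differences lay within 1 deposited SD. Klf10, induced by TGF-beta, had 162 ± 25.3 fragments in q2 and 136 ± 22.5 in q1, a log2 ratio of 0.25 ± 0.33, or 0.13 when corrected as above. Klf7 had 131 ± 21.7 in q2 and 142 ± 22.9 in q1, at -0.11 ± 0.33, or -0.24 corrected. Of its exonic bases, 3196 are shared with Gm26649 on the opposite strand. Klf9 had 93.7 ± 17.5 in q2 and 114 ± 19.8 in q1, at -0.28 ± 0.37, or -0.42 corrected. It passed the minimum of 100 fragments through q1 alone. At these counts a difference of 1.5-fold lay within 2 SD, and so was not detectable in any of the 3.

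**Figure D1:**
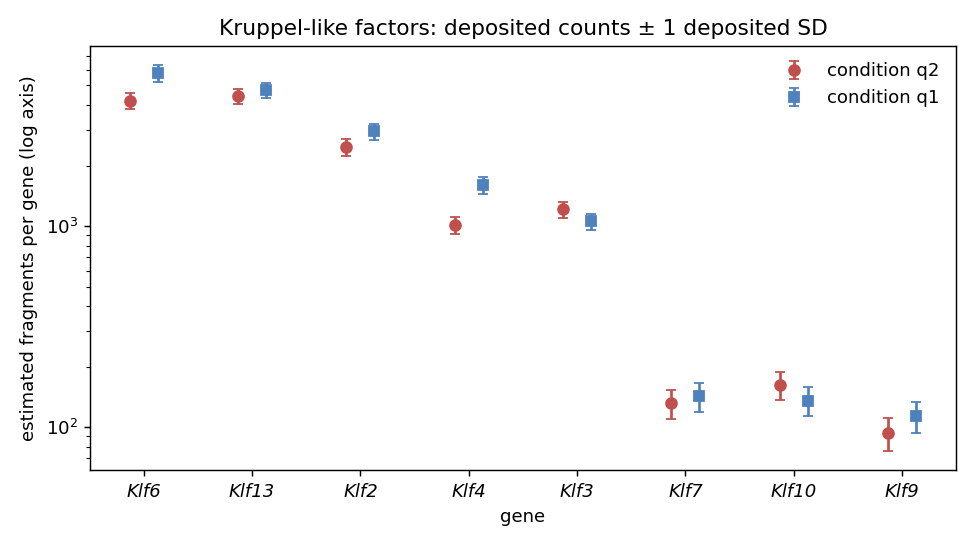
Estimated fragments of each Kruppel-like factor (log axis) in condition q2 (circles) and condition q1 (squares), with bars of 1 deposited SD. The bars of Klf4 and Klf6 do not meet, with 1011 and 4189 fragments in q2 against 1597 and 5761 in q1, whereas those of the other 6 members overlap.

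As a group, 6 of the 8 members had fewer fragments in q2 and 2 had more, beside 49.8% and 50.2% of all genes. The median log2 ratio of the members was -0.19, and their ratios ran over 0.91 on the log2 scale. Their summed fragments were 13684 in q2 and 16486 in q1, a log2 ratio of -0.27. Without Klf4 and Klf6 the sums were 8484 and 9128, with a log2 ratio of -0.11, so these 2 genes supplied most of the difference. Ratios by member, beside those of all genes, show Klf4 outside and Klf6 at the edge of the central 95% of genes.

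**Figure D2:**
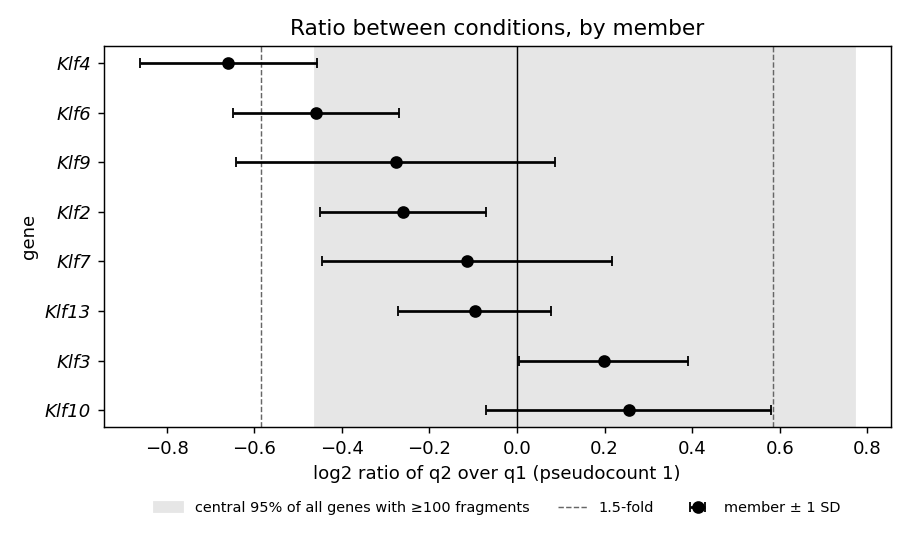
Log2 ratio of q2 over q1 for each member (points) with bars of 1 SD from the deposited variances, over the central 95% of all genes with at least 100 fragments (grey, -0.46 to 0.77) and lines at 1.5-fold. Klf4 stands at -0.66 and Klf6 at -0.46, and the 2 members on the positive side are Klf3 at 0.20 and Klf10 at 0.25.

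The deposited SDs of the members followed the size of their counts. The coefficient of variation of Klf4 was 9.87% in q2 and 10.02% in q1, where genes of similar count had a running median of 9.59% and 9.04%. For Klf6 it was 9.21% in q2 and 9.43% in q1, against 8.60% and 8.62% for genes of similar count. Klf9, the scarcest member, had 18.7% in q2 and 17.4% in q1, against 18.9% and 17.5%. An SD of this kind mostly reflects abundance, and it does not show how the mice differed.

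Levels of different genes were compared as fragments per kb of the longest GENCODE transcript. Klf2 had the highest level of the 8 members by this measure, at 1337 ± 124 fragments per kb in q2 and 1601 ± 148 in q1. Klf6 followed with 992 ± 91.3 in q2 and 1364 ± 129 in q1, a level 2.24 SD below that of Klf2 in q2 and 1.21 SD below it in q1, so their order was not resolved in q1. Klf13 came next among the members, at 691 ± 59.4 in q2 and 739 ± 63.6 in q1, with the non-member Sp3 above it at 907 and 759.

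Klf4 had 334 ± 32.9 fragments per kb in q2 and 527 ± 52.8 in q1, and Klf3 had 232 ± 21.7 in q2 and 202 ± 19.2 in q1. The step between them was 2.59 SD in q2 and 5.79 SD in q1. The scarce members lay far lower, with 53.2 in q2 and 44.6 in q1 for Klf10, 20.9 and 25.4 for Klf9, and 17.1 and 18.6 for Klf7. Klf9 and Klf7 differed in level by 0.78 SD in q2 and 1.27 SD in q1, so neither condition resolved their order. With the median length of each gene's transcripts in place of the longest, Klf13 came first in both conditions, and 2 of the 8 members kept their rank in q2. In q1 that length put Klf2, at 1601 fragments per kb, behind Klf13 at 6165, Klf6 at 5167 and Klf4 at 1859. With the union of exons all 8 kept it.

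**Figure D3:**
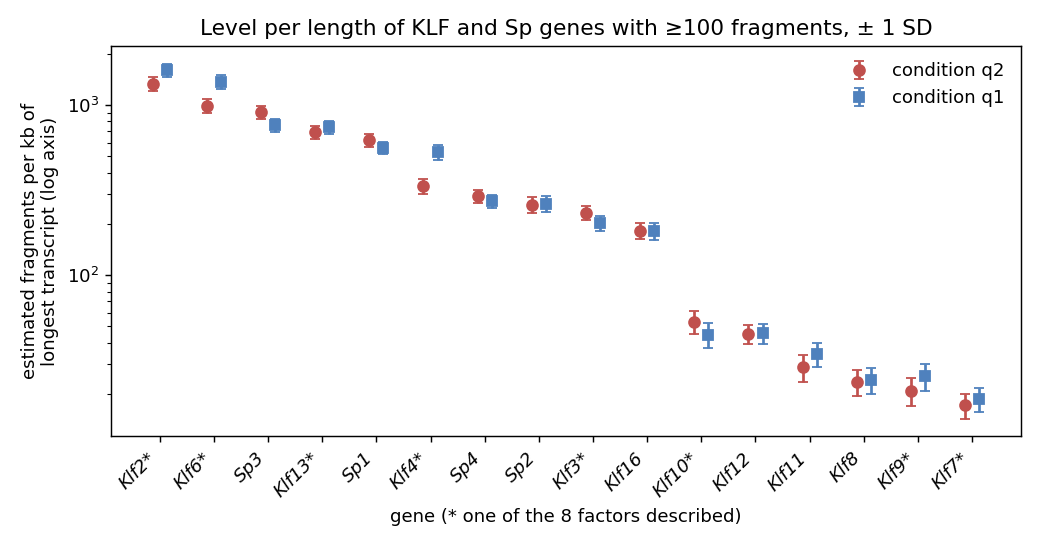
Level of the KLF and Sp genes with at least 100 fragments as estimated fragments per kb of the longest transcript (log axis), in condition q2 (circles) and condition q1 (squares), with bars of 1 deposited SD and the 8 members starred. Klf2, at 1337 in q2 and 1601 in q1, and Klf6, at 992 and 1364, stand at the top, and Klf7 is lowest at 17.1 and 18.6.

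The other KLF genes and the Sp factors, which share the zinc finger domain, were near equal in both conditions. Of 18 genes in the table, 8 reached 100 fragments, 4 with more fragments in q2 and 4 with more in q1, none by 1.5-fold, with a median log2 ratio of -0.0015. Sp3, a ubiquitous GC box factor, had the largest ratio at 0.26 ± 0.18, followed by Klf11, a close relative of Klf10, at -0.25 ± 0.35 and Sp1 at 0.15 ± 0.18. Klf1, the erythroid factor, was present at 5.17 fragments in q2 and 5.22 in q1. Klf5 had 2.77 in q2 and 14.3 in q1, below the minimum. Sp5, Sp7 and Sp9 were listed at 0 in both conditions.

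Genes known to act upstream of Klf2 and Klf4 did not stand apart by 1.5-fold. All 9 reached 100 fragments, 6 with more in q2 and 3 with more in q1, with a median log2 ratio of 0.012. Mef2c, a MEF2 factor of B cells, stood at 0.29 ± 0.18 and Foxo1, the FoxO factor that sustains B cell identity, at 0.19 ± 0.18. Map2k5, the kinase that activates ERK5, stood at -0.08 ± 0.22, and Mapk7, which encodes ERK5, at 0.01 ± 0.22.

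Ubiquitin ligases and deubiquitinases that act on KLF proteins, here called turnover genes, and the corepressors that KLFs recruit were as close. Of 9 turnover genes with 100 fragments, 5 had more in q2 and 4 had more in q1, with a median of 0.036. Wwp1, a ubiquitin ligase for Klf2, had the largest ratio at 0.24 ± 0.23, and Fbxw7 stood at 0.10 ± 0.21. Among 8 corepressor genes, 4 had more in q2 and 4 had more in q1, with a median of 0.0061. The deacetylase gene Hdac1 stood at 0.11 ± 0.18, Sin3b at -0.10 ± 0.18 and Ctbp1, the partner of the Klf3 repression domain, at 0.04 ± 0.18. No gene of either list with at least 100 fragments was 1.5-fold apart. Below that minimum, the Sin3 subunit gene Sap30 had 92.6 ± 17.4 fragments in q2 and 54.1 ± 12.4 in q1, at 0.76 ± 0.42.

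Homing genes that follow Klf2 in mouse lymphocytes went both ways. Of 10 genes, 6 had more fragments in q2, including 3 that were at least 1.5-fold apart, and 4 had more in q1, none by 1.5-fold, with a median of 0.36. Over all genes, 3.39% were at least 1.5-fold higher in q2. S1pr1 had 13215 ± 1218 fragments in q2 and 16214 ± 1524 in q1, at -0.30 ± 0.19, on the same side as Klf2. Itgb7, the integrin chain for gut homing, lay on the other side at 0.99 ± 0.20, with 1526 ± 140.3 fragments in q2 and 766 ± 78.2 in q1. The chemokine receptor Cxcr3, which rises in mouse T cells without Klf2, stood at 1.75 ± 0.35, and the follicular marker Fcer2a at 1.73 ± 0.20. Of these genes, Cxcr3 passed the minimum through q2 alone.

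Cell cycle genes described as KLF targets were mostly on the q2 side. Of 5 with at least 100 fragments, 4 had more in q2, including 2 that were at least 1.5-fold apart, and 1 had more in q1. Myc, a transcription factor of cell growth that Klf2 restrains in T cells, had 6728 ± 595 fragments in q2 and 10738 ± 999 in q1, at -0.67 ± 0.19, close to the ratio of Klf4. Ccnd2, the D-type cyclin of B cells, stood at 0.38 ± 0.18, Ccne1 at 0.78 ± 0.32 and Ccnb1 at 1.96 ± 0.37. Ccnb1 passed the minimum through q2 alone, with 240 fragments there and 61.1 in q1. Cdkn1b, the inhibitor p27, stood at 0.17 ± 0.18, and Cdkn1a had 12.9 fragments in q2 and 3.50 in q1.

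Other factors of lymphocyte quiescence were split between the sides. All 28 reached 100 fragments, 15 with more in q2 and 13 with more in q1, with a median log2 ratio of 0.029. The 3 that were at least 1.5-fold apart all had more fragments in q2, where 3.39% of all genes were higher by this much. Cdkn2c, an inhibitor of CDK4 and CDK6, stood at 1.003 ± 0.39, its relative Cdkn2d at 0.89 ± 0.31 and the pocket protein gene Rbl1 at 0.65 ± 0.21. Cdkn2c passed the minimum through q2 alone, with 133 fragments there and 65.7 in q1. Foxp1, which keeps naive lymphocytes at rest, stood at -0.05 ± 0.18 and the antiproliferative gene Btg1 at -0.13 ± 0.21. Foxo1, Foxo3 and Cdkn1b stand on 2 of these lists, so the lists are not separate.

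**Figure D4:**
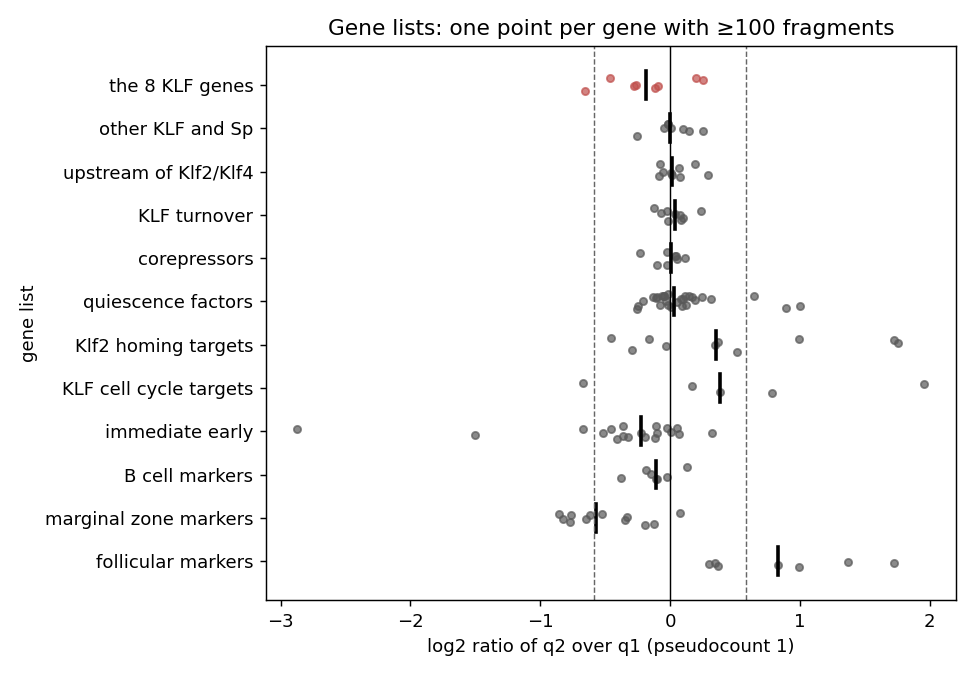
Log2 ratio of q2 over q1 for each gene with at least 100 fragments (points) by gene list, with the list median as a bar and dashed lines at 1.5-fold. The KLF median lies at -0.19, those of the other KLF and Sp genes, upstream, turnover, corepressor and quiescence genes between -0.0015 and 0.036, that of B cell markers at -0.11, and those of marginal zone and follicular markers farther out at -0.57 and 0.83.

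With 2 conditions the pattern of a gene is a single ratio, so likeness could be ranked only by its distance. Among 128 other genes of the lists that hold no cell type markers, the nearest to Klf4 were Myc, Dusp1 at -0.52 ± 0.19 and Cd69 at -0.45 ± 0.20. Of the 12 marginal zone markers, 5 were nearer than Dusp1, and Myof at -0.64 ± 0.18 was nearer than Myc. Myof lay 0.014, Myc 0.015 and Dusp1 0.14 from Klf4, each within the SD of its ratio, so their order was not resolved. Nearest to Klf2 were Mxd4 at -0.26 ± 0.19, Klf11 and Tsc22d3 at -0.25 ± 0.18. Tsc22d3, the farthest of these, lay 0.012 from Klf2, so their order was not resolved either.

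Immediate early genes, which stimulation or cell handling induces within minutes, lay on the side of Klf4 and Klf6. Of 19 with 100 fragments, 15 had more in q1 and 4 had more in q2, with a median of -0.22 (2 passed the minimum through q1 alone), and their summed fragments over all 22 were 88674 in q2 and 105204 in q1. Marginal zone markers did too, with 11 of 12 at more fragments in q1, including 6 that were at least 1.5-fold apart, beside 1.58% of all genes. Their median was -0.57, with sums of 129957 in q2 and 160795 in q1. All 7 follicular markers had more fragments in q2, with sums of 14937 in q2 and 9375 in q1.

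Macrophages also express Klf4 and Klf6. The 17 macrophage or monocyte markers in the table, none of them at 0, summed to 1248 fragments in q2 and 1693 in q1, with 3 at more fragments in q2 and 14 at more in q1. Of the 9 that passed the minimum, 7 had 100 fragments in 1 condition only. The 3 with more in q2 were the monocyte antigen gene Ly6c2 with 208 ± 30.3 in q2 and 59.4 ± 13.4 in q1, the macrophage surface gene Emr1 with 146 and 85.8, and the integrin gene Itgam with 210.2 and 149. The difference in Klf4 between the conditions was 586 fragments fewer in q2 and that in Klf6 was 1572 fewer. All 20 proliferation genes had more fragments in q2, with sums of 19086 in q2 and 8125 in q1, and 9 of them passed the minimum through q2 alone. The same held for all 11 germinal center markers, with sums of 3694 and 973 and 8 that passed through q2 alone. Plasma cell genes summed to 56861 in q2 and 19828 in q1, with 9 of 10 at more in q2. The gene Igj alone gave 33006 and 3234 of these, and so most of the difference between the sums. T cell markers summed to 1199 fragments in q2 and 795 in q1. Of these, Lck gave 689 and 524, and Cd28 gave 165 and 30.3. NK cell markers summed to 275 in q2 and 316 in q1, or 85.0 and 50.9 without the perforin gene Prf1. Dendritic cell markers summed to 418 and 263, and neutrophil markers to 39.5 and 25.3. The part of these cells and states in the KLF ratios was not tested. In pooled bulk counts, fewer cells of a type and less RNA per cell cannot be told apart.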

How the data were processed

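RNA was extracted with Trizol and made into libraries with an Illumina TruSeq RNA kit, per the labels' protocols. The submitters' processing notes name mm10 and the tools Cuffdiff 2.2.1, TopHat2 2.0.14 and cutadapt 1.8.1, without settings. The annotation, the strand setting and the scaling were not stated. Per the file headers, the authors deposited Cuffdiff's estimated count (expected fragments) per gene for 2 pooled conditions, q1 and q2, each with its variance. The part of the variance due to isoform assignment was 0 for every gene. Whether a variance refers to 1 library or to a mean is not stated.

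Ratios were computed with Python 3.11.15, numpy 2.4.6 and pandas 2.3.3, and intervals with scipy 1.17.1. Both variances gave the SD of a log2 ratio, to first order. The calculation was tested on counts simulated with the deposited variances of q1. Such counts cannot show whether those variances fit these data. Counts had a minimum of 100 fragments in the higher condition. Intervals cover counting error only, and depth per library is unknown. Positions and lengths came from GENCODE M21 (GRCm38, the assembly behind mm10), in which 95.6% of these genes had a transcript of the same symbol. The correction was a regression of the ratios on GC content, length and mean expression.

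The 12 gene lists, the members among them, and 11 lists of cell type markers were chosen with earlier results of these data known, and no set test was run. Named genes were the members, Ackr3, list genes at least 1.5-fold apart, otherwise up to 3 per list with the largest ratio, and up to 2 per list for the states that surround them, of which not all are reported here. Markers and list genes beyond this rule were chosen after their values were seen. Among them were Mapk7, Ctbp1, Foxp1, Btg1, Cdkn1a, Cdkn1b, S1pr1, Klf1, Klf5, Sap30, Myof, Ly6c2, Emr1, Itgam, Lck, Cd28 and Prf1. Alternatives were other pseudocounts, minimums, scalings, lengths and the correction.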

Additional observations from a re-analysis of the deposited data

How the results depend on the processing

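No paired analysis was possible because libraries were pooled into 1 value per condition, and none could be left out in turn. Under pseudocounts of 0 and 10, both scalings and the regression on GC content, length and expression, each of the 8 member ratios kept its sign, and 38 of 40 recomputed values moved by less than counting error. The other 2 were corrected values, -0.15 for Klf2 and -0.0097 for Klf13. Klf4 ranged from -0.66 to -0.61 and Klf6 from -0.51 to -0.44, and 1 member was at least 1.5-fold apart, and 2 more than 2 deposited SD apart, under each of these settings and both minimums. With a minimum of 500 fragments the members' median was -0.26 over the 5 that remained, and the genes at least 1.5-fold apart were 1 among cell cycle targets and 1 among quiescence factors, against 3 each, since fewer genes were compared, and 2 among homing genes, against 3. With the regression these were 4 homing genes and 2 quiescence factors. With a minimum of 20 fragments, 1 corepressor gene, Sap30, was 1.5-fold apart. By the median transcript length, 2 of 8 members kept their rank in level. Depth limits the 3 members with under 200 fragments most, and for abundant members the deposited variance exceeds counting error.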
